A study of Gallus gallus with 6 samples.

Results

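The miR-29 family was measured in small RNA from the testes of Cobb500 breeder cocks, a broiler breeding line of chicken, at 40 weeks of age. Its members were taken by name from the table of miRNA counts, as every entry named miR-29 with a letter a to c in any species and of either arm, and entries with the same sequence were counted once. This gave 6 distinct sequences of 1151 in the table, each on 1 line. The 3 control libraries (C) came from birds fed a corn and soybean diet, and the 3 libraries of the APS group (A) from birds fed that diet with 10 g of Astragalus polysaccharide (APS) added per kg. APS is a plant polysaccharide used as a feed additive. The methods describe a single bird taken from each feeding replicate and its left testis used, so the spread between libraries includes that between birds. RNA of testis tissue was sequenced, not of sorted cells, so fewer cells of a type and less RNA per cell cannot be told apart.

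The miR-29 miRNAs are made from hairpin precursors that are cut into a 5p and a 3p strand. The 3p strand is the one usually loaded into the silencing complex, and in mammals its seed, bases 2 to 8 from the 5′ end, pairs with the messages of collagens, elastin and other proteins of the extracellular matrix, and with those of the DNA methyltransferases DNMT3A and DNMT3B. In mammals miR-29 is often low in fibrosis and high in differentiated and ageing tissue. In the chicken annotation of RefSeq (GRCg7b) the family has the genes MIR29A, MIR29B1, MIR29B2 and MIR29C, and the nearest miRNA gene is MIR29B1 for MIR29A and MIR29C for MIR29B2. The genes MIR29B1 and MIR29B2 give the same mature 3p strand, so reads of gga-miR-29b-3p do not tell the genes apart. The entries analysed here were 4 3p and 2 5p sequences. They fall under gga-miR-29b and gga-miR-29c, and 1 under miR-29a of a frog. No line named gga-miR-29a was among them, its level is not analysed here, and sums and shares of the family cover the 6 entries only.

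The sequences are shown because the entries differ by so few bases that their names cannot all be read as separate genes. The 3p entries were these, from 5′ to 3′ with bases 2 to 8 in capitals.
gga-miR-29b-3p: tAGCACCAtttgaaatcagtgtt
gga-miR-29b-3p_R-1_2ss21GC22TC: tAGCACCAtttgaaatcagtcc
gga-miR-29c-3p_L+1R+1_1ss19GA: cTAGCACCatttgaaatcagtt
xtr-miR-29a_R+4: tAGCACCAtttgaaatcggttaaaa
The 5p entries were these, written in the same way.
gga-miR-29b-2-5p_L-2: cTGGTTTCacatggtggcttaga
gga-miR-29b-2-5p_L-2_2ss12CT20CT: cTGGTTTCatatggtggtttaga
In these names the suffix gives how the reads differ from the database miRNA, L and R for bases added to or missing from the left and right ends and ss for substitutions inside.

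The seed AGCACCA stood at bases 2 to 8 in 3 of the 4 3p entries and in no other sequence of the table, which is 0.261% of the 1151 sequences. The entry named gga-miR-29c-3p has 1 extra base at its 5′ end, which moves the same letters by 1 base and makes its own bases 2 to 8 TAGCACC. Anywhere in the sequence, on the strand given, the letters AGCACCA were found in 7 sequences (0.608%), the 4 3p members, gga-miR-218-3p_R-1 and a pair of predicted miRNAs. The 5p letters TGGTTTC stood at bases 2 to 8 in both 5p members and in no other sequence.

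The entry named gga-miR-29c-3p carried its name with the substitution G19A, counted from 1 at the first base of the sequence printed above with the database base first. Its bases 2 to 21 were identical to bases 1 to 20 of gga-miR-29b-3p, and over 21 bases laid side by side it differed from gga-miR-29b-3p by G21T alone, counted along gga-miR-29b-3p. By its name it is thus a single base from gga-miR-29c, not counting its added end bases. By its letters, without those end bases, it is identical to bases 1 to 20 of gga-miR-29b-3p. The G21T difference falls on the base that its name gives as added at the right end. Reads of these miRNAs cannot be assigned with certainty when a mismatch is allowed. The variant gga-miR-29b-3p_R-1_2ss21GC22TC shared its first 20 bases with gga-miR-29b-3p and differed by G21C and T22C. The entry xtr-miR-29a_R+4, named after a frog miRNA and not placed in the chicken genome by the study, differed from gga-miR-29b-3p first by A18G and ended in 4 A bases. Its first 21 bases differed from the entry named gga-miR-29c-3p by A19G alone, counted along that entry, which is the base that the entry's own name lists as substituted (G19A). The frog name therefore does not set this entry apart from gga-miR-29c. The 5p entries differed from each other by C10T and C18T, counted along gga-miR-29b-2-5p_L-2.

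A single sequence carried nearly all counts of the 6 entries. gga-miR-29b-3p had 837, 883 and 798 counts in C replicates 1, 2 and 3 and 963, 899 and 1036 in A replicates 1, 2 and 3. Over the 6 libraries this was 5416 of 5500 counts of the family, or 98.5% (95% Wilson interval 98.1% to 98.8%, for counting error only). The share in single libraries lay between 98.1% in A replicate 2 and 98.8% in C replicate 3. The other 5 entries together had 84 counts, 42 from 5p and 42 from 3p sequences. The 6 entries together took 0.148% of all miRNA counts (95% Wilson interval 0.145% to 0.152%), and gga-miR-29b-3p ranked 54 among the 1151 sequences by mean level.

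Levels are given below as CPM, counts scaled to a common library total by the TMM method, with values that were not whole rounded first, and folds are from edgeR's quasi-likelihood test over the 774 sequences that passed a filter on low values. gga-miR-29b-3p was at 1498, 1364 and 1454 CPM in C replicates 1, 2 and 3 and at 1613, 1380 and 1541 CPM in A replicates 1, 2 and 3. The diets overlapped, since A replicate 2 lay below 2 of the C libraries, and replicate 2 was the lowest library on both diets. Those 2 libraries also had the largest miRNA totals of their groups (743187 and 721285 counts) and the smallest TMM factors (0.871 and 0.903). A smaller factor raises CPM, so on library totals alone these 2 libraries would lie lower still. The part of the larger totals in their lower level was not tested.

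Per diet, gga-miR-29b-3p averaged 1439 ± 68.1 CPM without and 1512 ± 119 CPM with APS (SD, n = 3 per diet). Its log2 fold change of 0.07 had a standard error of 0.15, with an adjusted p of 0.920 by edgeR's quasi-likelihood test and Benjamini-Hochberg adjustment. Its 95% interval ran from -0.28 to 0.42, or from 0.825-fold to 1.34-fold, so that changes beyond these sizes lay outside it while smaller ones could not be told from no change. On the scale of the authors' normalized values it averaged 886 ± 13.5 without and 913 ± 59.1 with APS (SD, n = 3 per diet). On either scale the mean difference was smaller than the SD of the A libraries but larger than that of the C libraries.

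**Figure D1:**
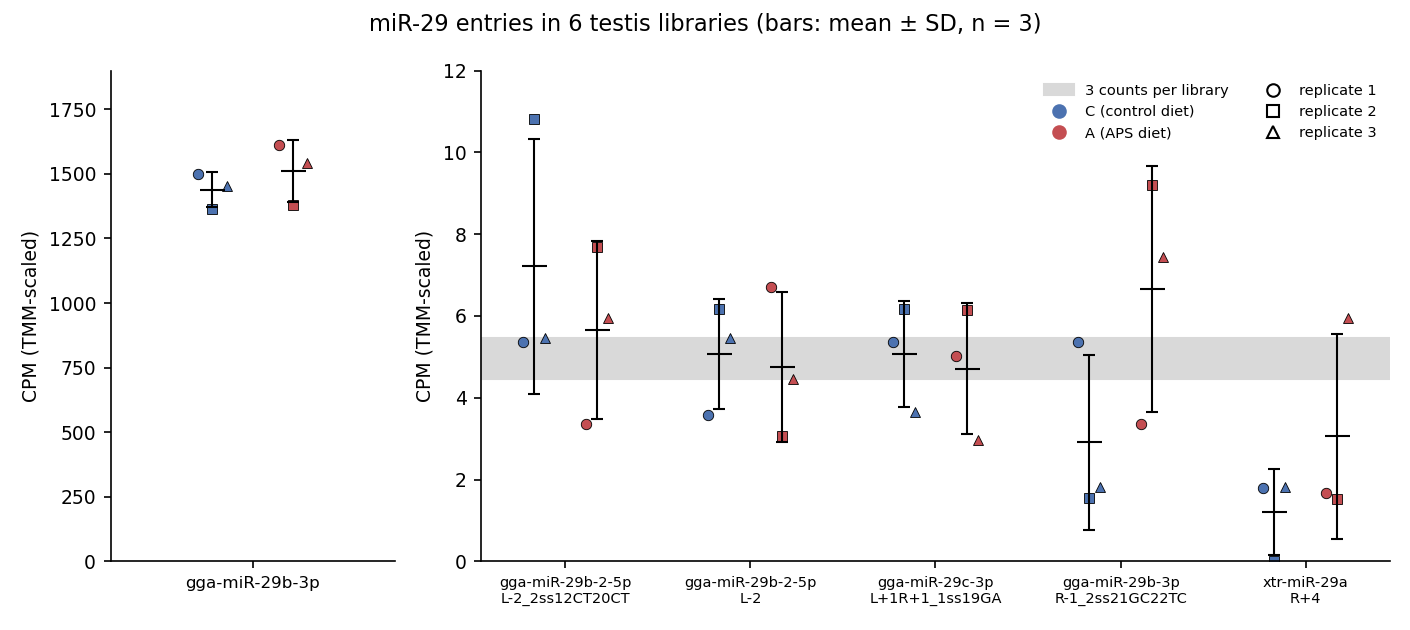
Level of each miR-29 entry in CPM, in the 3 libraries of each diet (points, shape by replicate number) with the mean and SD (bars), on separate linear axes for gga-miR-29b-3p and for the other 5 entries. gga-miR-29b-3p lies between 1364 and 1613 CPM in every library and its diets overlap, while the others lie at or below 10.8 CPM, near the grey band that marks 3 counts per library.

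gga-miR-29b-3p was also among the steadier miRNAs of these testes. Its level differed 1.18-fold between the highest and the lowest of the 6 libraries, and its coefficient of variation was 6.48%, where counting error alone at a mean of 903 counts gives 3.33%. Among the 137 sequences with a mean of at least 100 counts, its SD of log2(CPM + 1) over the 6 libraries (0.09) was the 10th smallest, and the median SD was 0.26. This is a description, as sequences with more counts also have less counting error. The range also depends on the scaling. On library totals alone replicate 2 of each diet would lie lower and the range would be wider. On the authors' normalized values the libraries lay between 852 and 969.

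The other entries were found near the limit of detection. A count of 3, the limit that a count of 0 allows, corresponds to 4.46 to 5.47 CPM in these libraries, and 20 of the 30 values of these 5 entries were at or below 3 counts. The highest was 7 counts. In every library gga-miR-29b-3p was at least 126-fold above the next entry, by 126-fold in C replicate 2 and by 279-fold in C replicate 1. Which entry came next changed from library to library, so that no order among these 5 held beyond their spread.

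The 5p strand, usually the passenger strand of this family, was represented by a pair of entries, both named after gga-miR-29b-2-5p. The name places them on the MIR29B2 hairpin, but the variant differs from the other entry by 2 substitutions, and its hairpin was not settled here. The sequence gga-miR-29b-2-5p_L-2, which lacks 2 bases at its 5′ end, had 2, 4 and 3 counts in C replicates 1, 2 and 3 and 4, 2 and 3 counts in A replicates 1, 2 and 3. Its variant gga-miR-29b-2-5p_L-2_2ss12CT20CT had 3, 7 and 3 counts in C and 2, 5 and 4 in A, highest in C replicate 2. These were at overlapping levels on both diets. Summed, the 5p sequences averaged 12.3 ± 4.19 CPM without and 10.4 ± 0.347 CPM with APS (SD, n = 3 per diet), and gga-miR-29b-3p had 80.3 to 167 times their counts in the single libraries. This ratio rests on 5 to 11 5p counts a library, and the hairpins behind its 3p and 5p reads may not be the same.

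The 5p entries had log2 fold changes of -0.11 (gga-miR-29b-2-5p_L-2, standard error 0.68) and -0.35 (the variant, standard error 0.62), with adjusted p of 0.969 and 0.905 by edgeR. Their 95% intervals were wide, from -1.64 to 1.43 and from -1.74 to 1.05. Without C replicate 2, which held 11 5p counts where the other C libraries held 5 and 6, the log2 fold changes were 0.041 and 0.060.

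The minor 3p entries were no better measured. gga-miR-29c-3p_L+1R+1_1ss19GA had 3, 3.5 and 1.5 counts in C replicates 1, 2 and 3 and the same values in A replicates 1, 2 and 3, with a log2 fold change of -0.11 and a standard error of 0.68. Why some of these values are not whole was not settled, as the sequence stood on 1 line of the table. The variant gga-miR-29b-3p_R-1_2ss21GC22TC had 3, 1 and 1 counts in C and 2, 6 and 5 in A, so that A replicate 1 lay below C replicate 1. It averaged 2.91 ± 2.13 CPM without and 6.67 ± 3.01 CPM with APS (SD, n = 3 per diet), and its log2 fold change of 1.17 had a standard error of 0.79, a 95% interval from -0.61 to 2.95 and an adjusted p of 0.705 by edgeR. Without C replicate 1 it was 1.89, and without C replicate 2 and A replicate 3 together, a setting chosen after seeing the data, 0.78. xtr-miR-29a_R+4 had 1, 0 and 1 counts in C and 1, 1 and 4 in A, and its log2 fold change of 1.28 had a 95% interval from -1.51 to 4.06. It passed the filter through the A libraries alone, with a mean normalized value of 0.728 in C and 1.83 in A, and 4 of its 8 counts were in A replicate 3. Without that library it was below the filter, and without it and C replicate 2 the log2 fold change was -0.15. The 0 in C replicate 2 allows up to 4.64 CPM.

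All 6 entries passed the filter, a group mean of the normalized values of 1 or more on either diet. By edgeR 0 of the 6 had an unadjusted p under 0.05, where 5.94% of the 774 sequences tested did (46 sequences, with 19 or 2.45% higher and 27 or 3.49% lower in A). The lowest unadjusted p among the members was 0.173, that of the gga-miR-29b-3p variant. An adjusted p under 0.05 was reached by 0 members and by 0 of the 774 sequences tested (0.0%). DESeq2's Wald test and limma on the log2 normalized values also called 0, with 23 and 52 sequences at an unadjusted p under 0.05 and 0 members among them. Quantile normalization with limma-voom turned the split to 38 higher and 20 lower. The diets overlapped in all 6 members, while they did not overlap in 13.0% of the sequences tested. The log2 fold change was positive in 3 members and negative in 3, and 45.1% of all sequences tested were positive. Among the positive members was xtr-miR-29a_R+4, which passed the filter through the A libraries alone, so its sign is no separate observation. In the fit without sequences not placed in the chicken genome, which leaves that entry out, 2 of 5 members were positive and 3 negative. The median over the 6, with xtr-miR-29a_R+4 among them, was -0.02, and that over all sequences tested was -0.08.

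**Figure D2:**
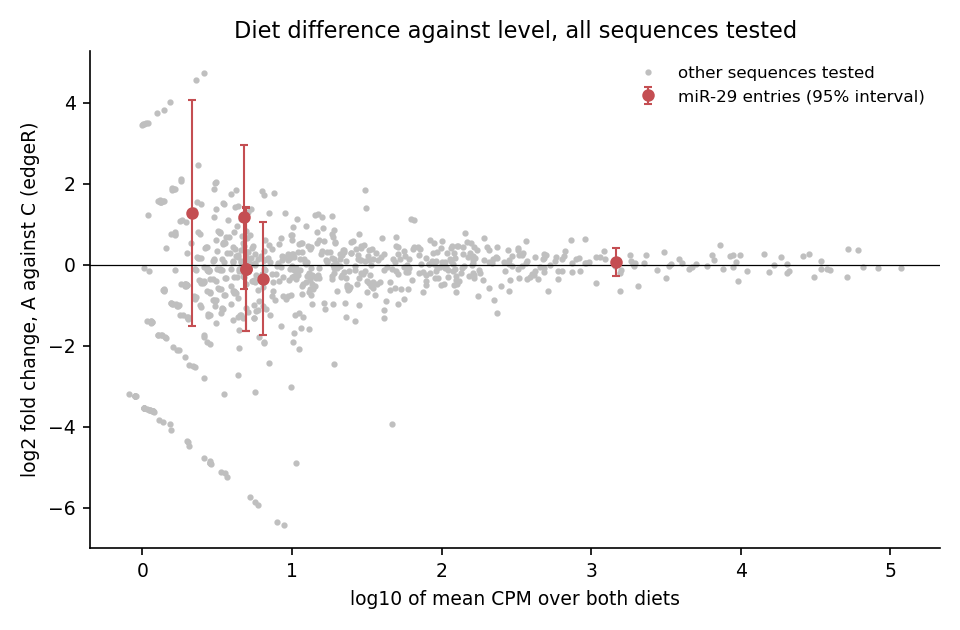
Log2 fold change of A against C by edgeR (vertical axis) against the mean level on a log10 scale (horizontal axis), for the 774 sequences tested (grey) and the 6 miR-29 entries (red, with 95% intervals). gga-miR-29b-3p lies at 0.07 with a narrow interval, the 5 sparse entries have wide ones, and 0 is inside every interval.

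The summed family showed the level of its main member. It averaged 1460 ± 66.0 CPM without and 1536 ± 116 CPM with APS (SD, n = 3 per diet), from 1520, 1389 and 1472 CPM in C and 1633, 1408 and 1568 CPM in A, and the diets overlapped. The 3p entries other than gga-miR-29b-3p averaged 9.18 ± 2.91 CPM in sum without and 14.4 ± 3.80 CPM with APS (SD, n = 3 per diet), on 42 counts in all, and A replicate 1 (10.1 CPM) lay below C replicate 1 (12.5 CPM). The log2 fold change of gga-miR-29b-3p was positive in all 17 alternative settings, from 0.01 to 0.10.

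**Figure D3:**
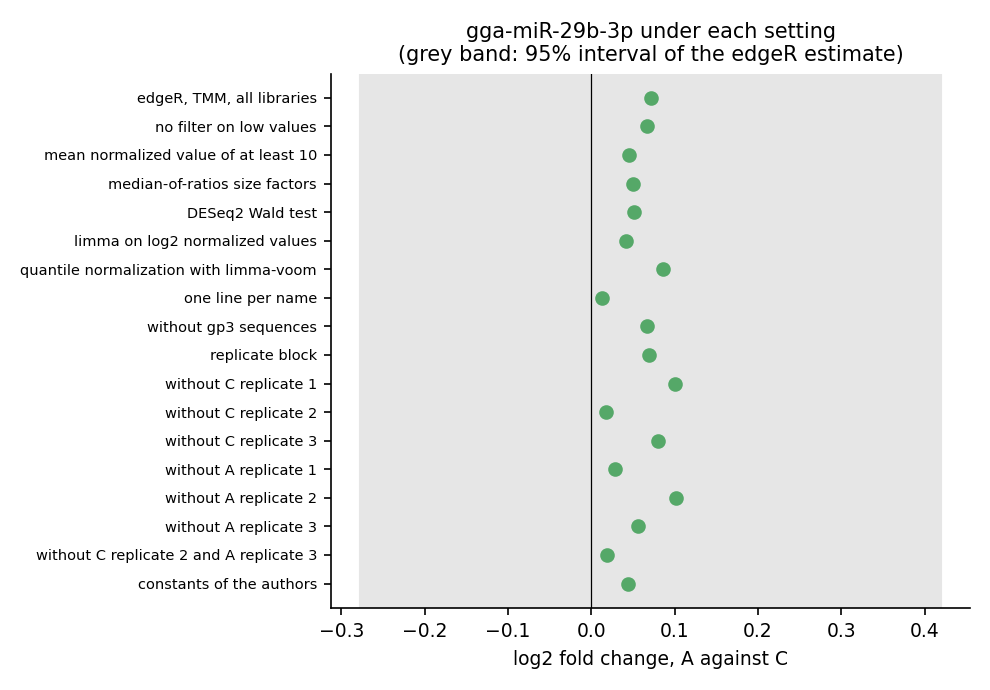
Log2 fold change of gga-miR-29b-3p, A against C (horizontal axis), in the edgeR fit of all libraries (top point) and in the 17 alternative settings, each on a line of its own. All points lie between 0.01 and 0.10, well inside the grey band of the 95% interval from -0.28 to 0.42.

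The miRNAs whose levels followed gga-miR-29b-3p most closely were sought among the 136 other sequences with a mean of at least 100 counts. The likeness was Pearson's r of log2(CPM + 1) over the 6 libraries, given as a description, since all values share the libraries and their scaling. The highest r were those of gga-miR-2131-5p (0.83, Spearman's rho 0.83), the predicted miRNA PC-3p-3122_828 (0.83, rho 0.77), gga-let-7a-5p_2ss12GT18TC (0.82, rho 0.54) and csa-let-7d_1ss10TC (0.79, rho 0.60), and 0 sequences had an r over 0.9. The median r was -0.08. Within diets, after the mean of each diet was taken off, r was 0.88, 0.85, 0.92 and 0.80 in the same order. Without A replicate 1 and C replicate 2, the libraries farthest from the median of gga-miR-29b-3p, r was 0.33 for gga-miR-2131-5p, whose likeness thus rested on those libraries, and 0.83, 0.71 and 0.62 for the others. The let-7 miRNAs, a large family of differentiated cells, shared with gga-miR-29b-3p a small range, as gga-let-7a-5p_2ss12GT18TC was at 15260 to 17542 CPM, whereas PC-3p-3122_828 ranged from 221 to 558 CPM.

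**Figure D4:**
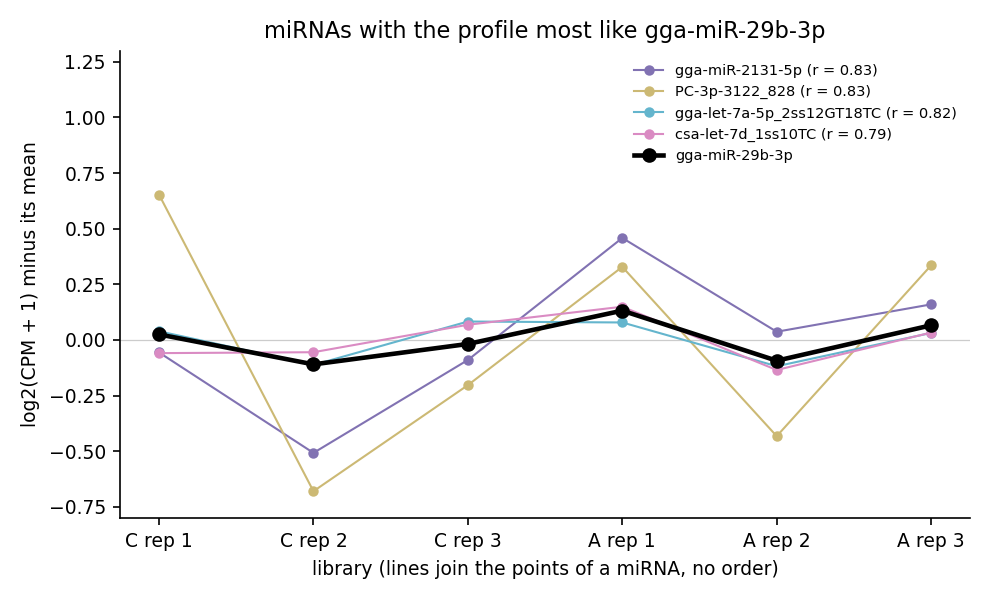
Level of gga-miR-29b-3p (black) and of the 4 miRNAs with the highest Pearson's r to it (coloured) in each of the 6 libraries, as log2(CPM + 1) minus the mean of the miRNA. Replicate 2 of each diet is low in gga-miR-29b-3p, and gga-miR-2131-5p and PC-3p-3122_828 range more widely than gga-miR-29b-3p.

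Other miRNAs were set beside the family, listed for fibroblasts and extracellular matrix here and for DNA methylation below. The list given here was made by tissue, and whether it shares target genes with miR-29 was not tested. Of 16 sequences of miR-21, miR-199, miR-214, miR-143 and miR-145, miRNAs abundant in fibroblasts, smooth muscle and matrix-forming tissue, 12 were tested. Of these, 10 had a positive log2 fold change, where 45.1% of all sequences tested were positive. The median of the 12 was 0.32 against -0.08 over all. The 12 include variants and both strands of the same miRNA, so they are not 12 separate miRNAs, and the list was chosen with earlier results of these data known. The summed list overlapped between diets, at 128767 to 200386 CPM in C and 150391 to 219169 CPM in A. At an unadjusted p under 0.05, 2 of the 12 were higher and 0 lower in A, beside 2.45% and 3.49% of all sequences, and 0 passed an adjusted p under 0.05 by edgeR. They were the strands of miR-21, of which the 3p strand is named after its values were seen. gga-miR-21-5p, a miRNA often raised where matrix is laid down, averaged 53334 ± 3322 CPM without and 68992 ± 6843 CPM with APS (SD, n = 3 per diet), for a log2 fold change of 0.37 (standard error 0.12) and an adjusted p of 0.690 by edgeR. That of gga-miR-21-3p_R+1 was 0.57 (standard error 0.21). The most abundant others of the list were hsa-miR-143-3p_R+1, at a log2 fold change of -0.08 (standard error 0.25), and gga-miR-199-5p, at 0.27 (standard error 0.34). The 3p strand gga-miR-199-3p_L-1R+2 went the other way, at -0.17 (standard error 0.28). Its level in C was 11687 CPM, beside 12921 CPM for gga-miR-199-5p. It and hsa-miR-143-3p_R+1 were the 2 negative sequences of the 12.

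Of 16 sequences of miR-148, miR-152, miR-101, miR-26 and miR-22, which in mammals target DNA methyltransferases, EZH2 or the demethylating TET enzymes, 14 were tested, 5 positive and 9 negative, with a median log2 fold change of -0.09 and 0 at an unadjusted p under 0.05. Over all sequences tested 45.1% were positive, the median was -0.08 and 5.94% were called, so these miRNAs lay near the background. Their most abundant members were gga-miR-26a-5p_R+1 (log2 fold change -0.05, standard error 0.23), gga-miR-148a-3p (0.08, standard error 0.13) and gga-miR-101-3p_R-1 (-0.20, standard error 0.13). gga-miR-29b-3p, at 0.07, lay in the range of these log2 fold changes. By level it was far below them, as gga-miR-101-3p_R-1, the least abundant of the 3, was at 21822 CPM in C, though levels of different sequences also carry ligation and amplification bias.

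The libraries held 497286 to 743187 miRNA counts and 718 to 850 detected sequences, with a common biological coefficient of variation of 30.5%. The gonad miRNA miR-202, a marker of the labelled tissue, summed to 44239 to 66467 CPM in C and 40040 to 56222 CPM in A. The miR-34b, miR-34c and miR-449 sequences are markers of germ cells from meiosis on and of cells with cilia. They summed to 821 to 997 CPM in C and 1207 to 1386 CPM in A, without overlap of the diets. Of single sequences 13.0% did not overlap, a share that was not worked out for sums. Of 10 tested, 7 were positive and 3 negative, where 45.1% of all sequences tested were positive. Most of the sum was gga-miR-34b-5p_L-1R+1 (580 CPM in C, 886 CPM in A). Its log2 fold change was 0.61 (standard error 0.17), with an adjusted p of 0.690 by edgeR. That of gga-miR-449a was -0.19 (standard error 0.25). The part of these miRNAs in the level of miR-29 was not tested. The fibroblast list of miR-199 and miR-214 ranged from 16091 to 36030 CPM in C and from 19191 to 35152 CPM in A, and smooth muscle miR-143 and miR-145 from 62375 to 110794 CPM in C and from 60732 to 108301 CPM in A, wider than the 1.18-fold range of gga-miR-29b-3p. Epithelial miRNAs (5886 to 7223 CPM), white cell miRNAs (614 to 1563 CPM), red cell miRNAs (127 to 283 CPM) and striated muscle miRNAs (118 to 219 CPM over both diets) were also present, and here too the part was not tested.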

How the data were processed

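Small RNA of 6 testes, 3 per diet, was sequenced. The authors processed the reads with ACGT101-miR (version 4.2 in the labels), removing adapters, other RNA and repeats and aligning short sequences to miRBase precursors. By their description 1 mismatch and variable ends were allowed. Some names, such as gga-miR-29b-2-5p_L-2_2ss12CT20CT, list more than 1 substitution, and how these entries passed was not settled. Their genome build was not given in the sources used here. Deposited raw values are expected counts, of which 87.3% were whole (within 0.001). The normalized values are a signal that the authors made by multiplying each library's counts by a constant (0.886 to 1.11). The authors' group means, fold changes and p-values were not used.

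Lines were summed per distinct sequence and rounded to whole counts. The 774 of 1151 sequences with a normalized mean of 1 or more on either diet were tested with edgeR 4.0.16 (TMM, quasi-likelihood, R 4.3.3) and Benjamini-Hochberg adjustment over all of them. Standard errors were obtained as |log2 fold change| over the square root of the F statistic. Alternatives used DESeq2 1.42.0 and limma 3.58.1, and descriptions Python 3.11.15, numpy 2.4.6, pandas 2.3.3 and scipy 1.17.1. The fit was also run on counts simulated from its own means and spread, which cannot show how it performs on these libraries. Libraries held 497286 to 743187 counts, and Wilson intervals and floors cover counting error only, since amplified reads are not independent molecules. The intervals of log2 fold changes include the spread between libraries.

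Every miR-29 entry is named, with the 4 miRNAs of highest Pearson's r to the most abundant entry and up to 3 sequences of highest level per list. The members and lists were chosen with earlier results of these data known.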

Additional observations from a re-analysis of the deposited data

How the results depend on the processing

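Of 139 values recomputed under the alternatives, 125 were scored as unchanged, 10 changed sign and 4 moved. For a log2 fold change, unchanged meant the same sign and the same side of an adjusted p of 0.05. For a count of sequences it meant a similar size, and for the family ratio a shift smaller than its SD. The 4 that moved were counts of sequences. The miR-29 entries that were tested had 0 unadjusted p under 0.05 in all 17 alternatives (lowest 0.0641, quantile normalization with limma-voom). Not all 6 were tested in each, as the filter or the removal of sequences not placed in the chicken genome left some out. gga-miR-29b-3p stayed positive, from 0.02 to 0.10 with 1 library left out, and the family ratio ran from 1.02 to 1.10 in 10 alternatives. The changes of sign were in entries of 24 counts or fewer, where counting error limits every value, and their cause was not tested. With 1 library left out, the log2 fold change ran from -0.64 to 0.060 for gga-miR-29b-2-5p_L-2_2ss12CT20CT, from -0.41 to 0.090 for gga-miR-29b-2-5p_L-2, from -0.37 to 0.13 for gga-miR-29c-3p_L+1R+1_1ss19GA, from 0.70 to 1.66 for xtr-miR-29a_R+4 and from 0.84 to 1.89 for gga-miR-29b-3p_R-1_2ss21GC22TC. Without C replicate 2 and A replicate 3 together, chosen after seeing the data, the first 4 of these stood at 0.040, 0.092, 0.30 and -0.15. The range of xtr-miR-29a_R+4 lacks the fit without A replicate 3, where that entry was below the filter. A replicate 3 held 4 of the 8 counts of that entry. Quantile normalization gave 0.13 for gga-miR-29c-3p_L+1R+1_1ss19GA, and moved the median of all sequences from -0.08 to 0.02. The authors' constants as scaling, also chosen after seeing the data, changed no sign among the 6 entries.

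Without a filter on low values 12 sequences had an adjusted p under 0.05 by edgeR, against 0 in the other alternatives and with each library left out, and 0 of the 12 were members. At an unadjusted p under 0.05 there were 84 without a filter, 29 with a filter at a mean of 10, which left gga-miR-29b-3p as the only member, and 23 by DESeq2, against 46, and 31 to 59 with 1 library left out. The replicate block gave 0 sequences at an adjusted and 60 at an unadjusted p under 0.05, and 0.07 for gga-miR-29b-3p, and changed no sign among the members. Deviations of same-numbered libraries correlated at 0.22, 0.16 and -0.19 over 337 sequences, so the numbers were not taken as pairs, and not every library correlated best with its own number.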
